A study of Mus musculus with 6 samples.

Results

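The unfolded protein response and the machinery it serves were examined as a set of 39 genes in brown adipose tissue, chosen by function. The choice was made with earlier results of these data known. The set holds the stress sensors of the endoplasmic reticulum (ER), its chaperones and disulfide enzymes, the components of ER-associated degradation (ERAD) and the subunits of the translocon. Of the 39 symbols, 38 were listed among the 12966 genes of the expression table, and all 38 reached the minimum mean of 1 FPKM that a gene needed to be tested. FPKM is a fragment count divided by the length of the transcript and by the size of the library. Vimp was the symbol without a row. The table has a row for H47, which RefSeq gives as another symbol of that gene, and its values are given below apart from the counts.

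Brown adipose tissue came from 10 week old male C57BL/6J mice. The control mice (Ctrl, 3 libraries) carried floxed Bscl2 alleles, and the knockout mice (BKO, 3 libraries) carried the same floxed alleles together with a Ucp1 promoter-driven Cre recombinase. The floxed allele is therefore shared by both groups, while the Cre is present in BKO alone, and its own effect cannot be told apart from that of losing Bscl2. Ucp1-Cre acts in brown adipocytes, so other cells of the tissue keep the gene. Bscl2 encodes seipin, a membrane protein of the ER that organises lipid droplet formation.

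The lumen of the ER is where secreted and membrane proteins enter through the Sec61 channel, fold with the help of chaperones such as BiP (Hspa5) and GRP94 (Hsp90b1), and gain disulfide bonds from protein disulfide isomerases. Proteins that fail to fold are pulled back to the cytosol and degraded, a route that uses the Hrd1-Sel1L ligase complex and the derlins. When unfolded proteins accumulate, the sensors IRE1 (Ern1), PERK (Eif2ak3) and ATF6 signal to the nucleus. IRE1 splices the Xbp1 message, ATF6 is cleaved into a transcription factor, and PERK lowers translation, and together they raise the chaperones, disulfide enzymes and ERAD genes.

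Bscl2 checked the labels. It stood at 116, 104 and 106 FPKM in libraries Ctrl-1 to Ctrl-3, and at 16.5, 16.9 and 18.9 FPKM in libraries BKO-1 to BKO-3. The brown adipocyte markers summed to 20242 to 21115 FPKM in Ctrl and 20785 to 23119 FPKM in BKO, and all 12 were listed. Fabp4 alone had a Ctrl mean of 10924.5 FPKM, so the sum says little of the single markers. Of the 12, 7 had a positive and 5 a negative difference. Every BKO library lay above every Ctrl library in Cox7a1 and Cox8b (16.7%, against 9.06% of all genes tested). In Cidea they all lay below, as in 6.82% of all genes tested. The BKO-3 library stands apart: its values sum to 2808870 FPKM against 1119230 to 1617960 in the others, and its lowest value above 0 is 0.486 FPKM, below which the other libraries hold 341 to 632 values. A gene that was under that level in BKO-3 may be left out of the listing. The counts over all members, and the differences of some members, are given below with and without this library. The counts by role, the promoter elements, the further lists and the cell markers are given with all libraries only. The values are not counts, so the depth of each library is unknown. The labels do not tie libraries to separate animals, so every p-value rests on the spread among these libraries, which may be technical.

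Across the set, most members lay higher in BKO, by amounts that are small for single genes, and none passed the test over all genes. The test was limma on log2(FPKM + 1) with Benjamini-Hochberg adjustment over 11397 genes, of which 0.158% passed as higher and 0.00877% as lower at an adjusted p of 0.05. Among the 38 members 0 passed, and the lowest adjusted p was 0.170 (limma), for Hsp90b1. At an unadjusted p of 0.05, limma found 15 members higher and 0 lower, which is 39.5% of the members, where 6.63% of all genes tested were higher and 3.52% lower. In 15 members every BKO library lay above every Ctrl library, and in 0 members did they all lie below, where these shares over all genes were 9.06% and 6.82%. These were the same 15 genes by both measures. As the members were chosen with earlier results known, these shares describe the set and are not an independent test.

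The sign and size of the changes set the members beside the genes at large. The median difference, BKO minus Ctrl on the log2(FPKM + 1) scale, was 0.23 over the members and 0.01 over all genes tested. A positive difference was found in 30 of the 38 members (78.9%) and in 51.6% of all genes. Derl3 and Sdf2l1 had a Ctrl mean under 1 FPKM and reached the minimum level through BKO alone, so a difference in them was bound to be upward. Over the other 36 members the median was 0.21, and 13 were higher at an unadjusted p of 0.05. In 13 of these 36 every BKO library lay above every Ctrl library.

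**Figure D1:**
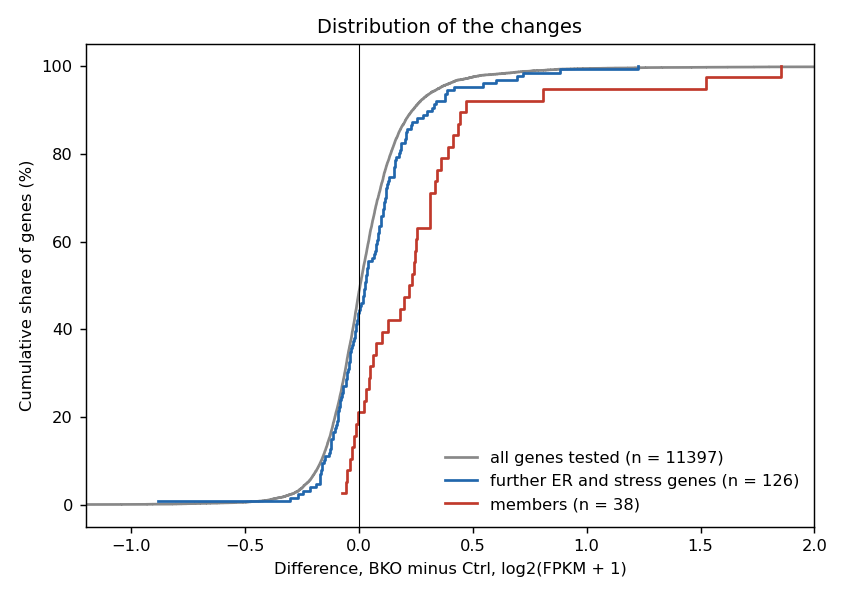
Cumulative share of genes (vertical axis, percent) against the difference between BKO and Ctrl on the log2(FPKM + 1) scale (horizontal axis), for all 11397 genes tested, for 126 further genes of the ER and its stress responses, and for the 38 members. The curve of the members crosses its midpoint at 0.23, that of the further genes at 0.03 and that of all genes at 0.01, and 32 genes lie outside the axis.

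By role, the chaperones held the largest share of such genes among the 5 roles. Of 11 chaperones and co-chaperones, 8 were higher at an unadjusted p of 0.05 (median log2 difference 0.31), of 5 sensors and signalling genes 2 (median 0.34), of 7 disulfide enzymes 2 (median 0.23), of 9 ERAD genes 3 (median 0.07), and of 6 translocon genes 0 (median 0.07). Whether the roles differ from each other was not tested. The summed level of the chaperones was 356 to 433 FPKM in Ctrl and 445 to 555 FPKM in BKO, and that of the translocon genes was 216 to 239 and 217 to 280 FPKM, which overlap.

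**Figure D2:**
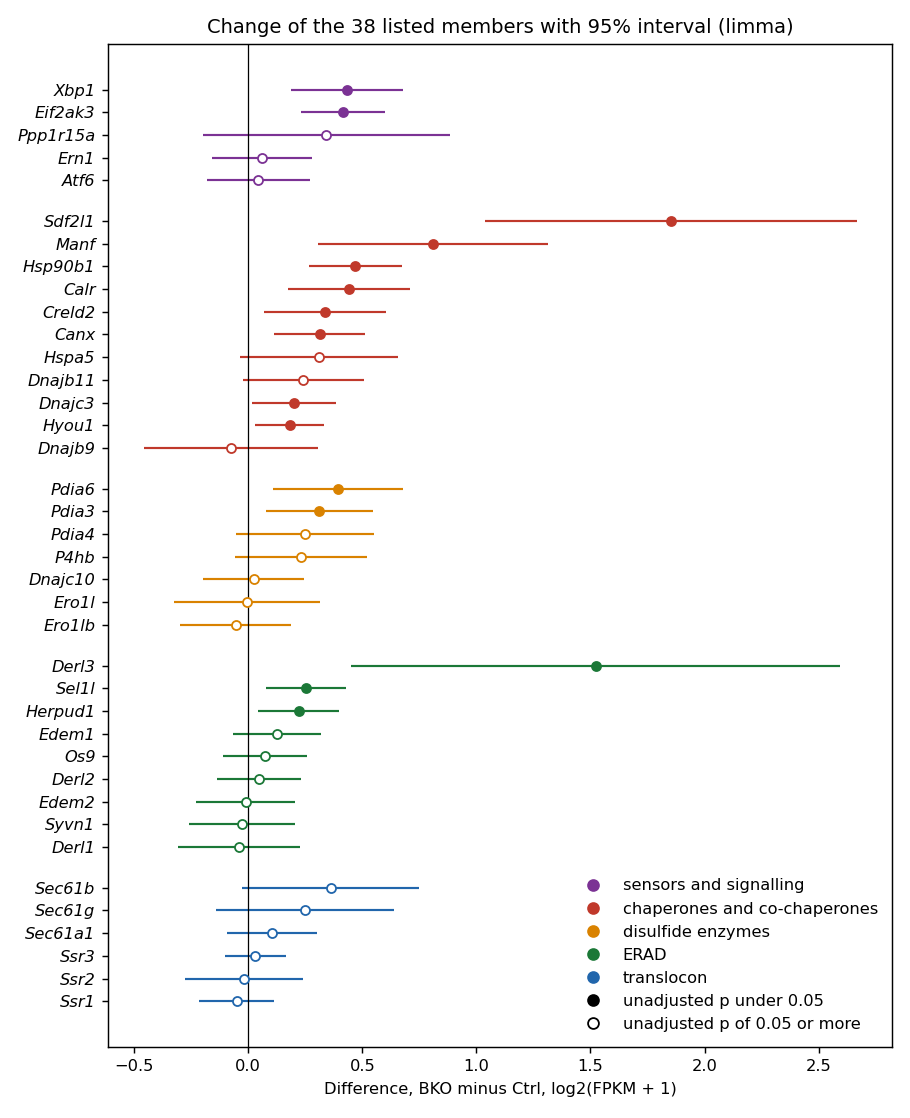
Difference between BKO and Ctrl on the log2(FPKM + 1) scale (horizontal axis) with its 95% interval from limma for each of the 38 listed members, grouped and coloured by role; filled points have an unadjusted p under 0.05. All 15 filled points lie to the right of 0, led by Sdf2l1 at 1.85 and Derl3 at 1.52, and the 6 translocon genes are all open.

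Several members share a known promoter element of the ER stress response. The members were chosen as genes of this response, so its share among them is not independent of that choice. The ER stress response element (ERSE), to which ATF6 binds together with the factor NF-Y, was searched as CCAAT and CCACG separated by 9 bases, on both strands, in RefSeq promoter windows of build GRCm38.p6 that run from 250 bases before to 50 after each gene's start. Of the 39 members 33 matched a window, and 10 of these held the element, against 37 of 27025 genes (0.137%) and 39 of 32851 windows (0.119%). These totals include the members. Atf6, Hyou1, Manf, Derl1, Sec61a1 and Ssr2 had no window. Among the chaperone genes that lay higher in BKO, the element was found in Calr, Canx, Creld2, Dnajc3 and Hsp90b1 and not in Sdf2l1. Every ERSE found in a member is printed here, whatever the change of the gene. Each stretch is given on the strand of its gene, 5′ to 3′, with the element in capitals and 20 flanking bases on each side. An element that reads CGTGG first and ATTGG last lies on the opposite strand.

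Hspa5 (chr2:34772005-34772063, + strand): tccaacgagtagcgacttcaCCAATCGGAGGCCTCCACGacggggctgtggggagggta
Hsp90b1, distal (chr10:86705618-86705676, - strand): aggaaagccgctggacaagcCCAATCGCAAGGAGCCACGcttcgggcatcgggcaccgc
Hsp90b1, proximal (chr10:86705513-86705571, - strand): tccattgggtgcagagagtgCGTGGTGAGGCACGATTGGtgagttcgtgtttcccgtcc
Calr (chr8:84847055-84847113, - strand): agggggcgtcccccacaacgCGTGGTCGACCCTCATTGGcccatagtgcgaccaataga
Canx (chr11:50325780-50325838, - strand): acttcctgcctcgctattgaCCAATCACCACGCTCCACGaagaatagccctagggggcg
Creld2 (chr15:88819500-88819558, + strand): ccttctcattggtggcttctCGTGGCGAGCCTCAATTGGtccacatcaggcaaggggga
Dnajc3 (chr14:118937807-118937865, + strand): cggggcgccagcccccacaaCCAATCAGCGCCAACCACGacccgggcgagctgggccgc
Pdia6 (chr12:17266471-17266529, + strand): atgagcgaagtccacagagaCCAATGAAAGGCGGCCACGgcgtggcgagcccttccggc
Derl3 (chr10:75893222-75893280, + strand): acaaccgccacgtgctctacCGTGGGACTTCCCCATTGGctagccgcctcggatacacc
Ero1lb (chr13:12565662-12565720, + strand): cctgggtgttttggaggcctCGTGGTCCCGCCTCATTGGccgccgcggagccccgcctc
Syvn1 (chr19:6046512-6046570, + strand): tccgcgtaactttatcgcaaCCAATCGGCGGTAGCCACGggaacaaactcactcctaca

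The element of Syvn1 begins 44 bases before the start, that of Hspa5 65 bases before it, and the distal element of Hsp90b1 212 bases before it. Of the 10 members with an ERSE, 7 were higher in BKO at an unadjusted p of 0.05 (limma, median log2 difference 0.32). Of the 22 tested members with a window and no ERSE, 6 were (median 0.23). A positive difference was found in 8 of the 10 (80%) and in 18 of the 22 (81.8%). Whether members with and without the element differ was not tested. Among all 8592 tested genes with a window, 6.34% were higher at that threshold and 50.9% had a positive difference. The 7 include Derl3 and the 6 include Sdf2l1, which reached the minimum level through BKO alone. The members without it in this window include Sdf2l1, Xbp1 and Eif2ak3, which also lay higher. Outside the set, 6 tested genes held an ERSE, with a median log2 difference of 0.01. None of these was higher at that threshold by limma and 1 was lower, Xlr3b, which stood at 1.37 to 1.71 FPKM in Ctrl and at 0.642 to 1.14 FPKM in BKO and is named after its values were seen.

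A second form of the element, ERSE-II, was searched as ATTGG and CCACG separated by 1 base and ends in the same CCACG. It was found in Herpud1 and Dnajb11, and in 0.0365% of all windows. The Herpud1 stretch is shown because this gene also holds, further upstream, the letters TTGCATCA of a C/EBP-ATF element, present in 0.895% of windows.

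Herpud1, ERSE-II (chr8:94386357-94386407, + strand): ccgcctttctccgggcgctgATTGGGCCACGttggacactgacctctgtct
Herpud1, C/EBP-ATF (chr8:94386297-94386344, + strand): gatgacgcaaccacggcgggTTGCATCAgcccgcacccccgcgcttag

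The unfolded protein response element, TGACGTGG, was found in 0 of the 33 members with a window and in 0.676% of windows. A match is a description of the letters, and factor binding was not measured.

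Among the sensors, PERK and the Xbp1 message lay higher in BKO, while Atf6 and Ern1 overlapped between the groups. Eif2ak3, the kinase PERK that phosphorylates eIF2 alpha, stood at 3.35, 3.43 and 3.45 FPKM in Ctrl and at 4.64, 5.09 and 4.92 FPKM in BKO, in the order of the replicate numbers used from here on. The Ctrl values lay within 0.105 FPKM of each other and every BKO value lay above them. Its mean was 1.43 times as high in BKO (log2 difference 0.41, SE 0.0781, limma with Benjamini-Hochberg adjusted p = 0.171). Another transcript, Gm43292 on the opposite strand, covers 10% of its exonic bases in GENCODE, and reads from the 2 cannot be told apart unless the counting used strand, which is not given in the sources used here.

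Xbp1, the target of IRE1, stood at 30.2, 26.3 and 23.6 FPKM in Ctrl and at 33.3, 38.9 and 36.7 FPKM in BKO. The groups did not overlap, and the mean was 1.36 times as high in BKO (log2 difference 0.43, SE 0.105, limma adjusted p = 0.248). Gene-level values do not separate spliced from unspliced Xbp1, so the activity of IRE1 was not measured.

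Ern1, which encodes IRE1, stood at 2.56, 2.39 and 2.24 FPKM in Ctrl and at 2.35, 2.78 and 2.49 FPKM in BKO. Atf6 stood at 6.10, 6.24 and 7.36 FPKM in Ctrl and at 6.24, 6.92 and 7.19 FPKM in BKO. The 2 groups overlapped in both genes, and the 95% interval of the log2 difference was -0.16 to 0.28 for Ern1 and -0.18 to 0.27 for Atf6. Ppp1r15a, the phosphatase subunit GADD34 that reverses the action of PERK, varied widely, at 13.3, 8.26 and 11.3 FPKM in Ctrl and 19.2, 10.5 and 13.3 FPKM in BKO (limma adjusted p = 0.667).

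**Figure D3:**
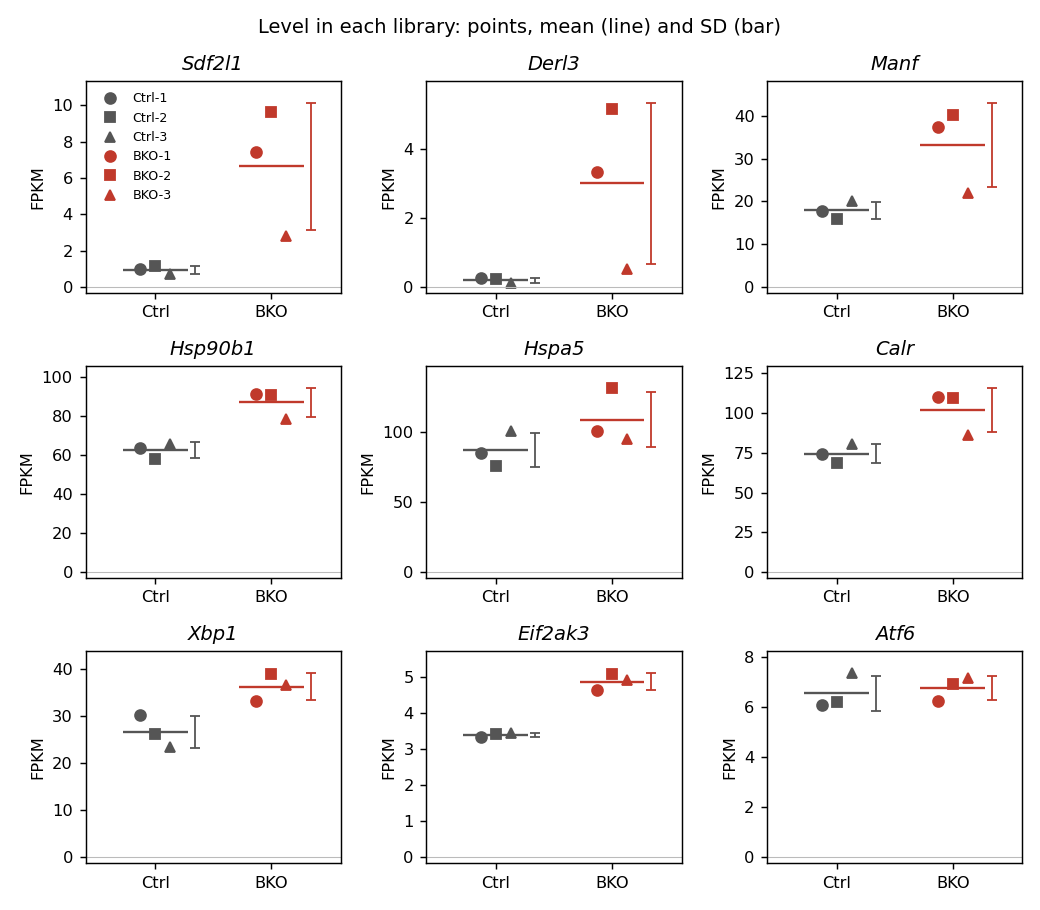
FPKM in each library (vertical axes, starting at about 0) for 9 members in Ctrl and BKO, with the mean as a line, the SD as a bar (n = 3) and the replicate number as the marker shape. Sdf2l1, Derl3 and Manf are high in BKO-1 and BKO-2 and closer to Ctrl in BKO-3, Eif2ak3 and Xbp1 are separate in all 3, and Hspa5 and Atf6 overlap.

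The largest differences among the chaperones were in Sdf2l1 and Manf, genes of small lumenal proteins. Sdf2l1, a component of an ER chaperone complex that works with the BiP co-chaperone ERdj3, stood at 0.982, 1.16 and 0.712 FPKM in Ctrl and at 7.44, 9.66 and 2.83 FPKM in BKO. Every BKO library was above the highest Ctrl library, and BKO-3 was the lowest of them. The mean was 6.99 times as high in BKO (log2 difference 1.85, SE 0.348, limma adjusted p = 0.171). Manf, a secreted and ER-resident protein that binds BiP, stood at 17.8, 16.0 and 20.01 FPKM in Ctrl and at 37.4, 40.1 and 21.9 FPKM in BKO, a ratio of means of 1.85 (log2 difference 0.81, SE 0.215, limma adjusted p = 0.286). BKO-1 and BKO-2 lay far above Ctrl, and BKO-3 lay just above the highest Ctrl library. An antisense transcript, 4930524O07Rik, covers 6.74% of the exonic bases of Manf. Creld2, another ER-stress-inducible lumenal protein, stood at 5.51, 4.35 and 5.10 FPKM in Ctrl and at 6.73, 7.22 and 5.72 FPKM in BKO, again with BKO-3 nearest to Ctrl. Its log2 difference, 0.34 (limma adjusted p = 0.401), was below those of Hsp90b1 and Calr.

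The abundant chaperones also lay higher, by ratios of means below those of Sdf2l1 and Manf. Hsp90b1, the ER form of HSP90 (GRP94), stood at 63.6, 58.0 and 65.8 FPKM in Ctrl and at 91.5, 90.8 and 78.6 FPKM in BKO. The groups were well apart, with a ratio of means of 1.39 (log2 difference 0.47, SE 0.0863, limma adjusted p = 0.170). Its promoter stretch printed above holds 2 copies of the ERSE. A pseudogene on the opposite strand, 1810014B01Rik, covers 14.7% of its exonic bases.

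Calr, the lectin chaperone calreticulin, stood at 73.9, 68.6 and 80.4 FPKM in Ctrl and at 110.2, 109 and 86.0 FPKM in BKO (log2 difference 0.44, SE 0.113, limma adjusted p = 0.272). Canx, its membrane-bound relative calnexin, stood at 50.4, 47.8 and 56.1 FPKM in Ctrl and at 68.0, 64.5 and 59.7 FPKM in BKO (log2 difference 0.31, SE 0.0845, limma adjusted p = 0.287). In both genes the groups did not overlap and BKO-3 was the lowest BKO library.

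Hspa5, which encodes BiP and had the highest Ctrl mean of the set, did not separate the groups. It stood at 85.5, 76.1 and 100.8 FPKM in Ctrl and at 100.8, 131.6 and 95.2 FPKM in BKO. Ctrl-3 lay above BKO-1 and BKO-3, and BKO-2 was the highest of the 6. The log2 difference was 0.31 with a 95% interval of -0.03 to 0.66 (limma adjusted p = 0.534), and without BKO-2 the difference was 0.17.

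Of the BiP partners, the nucleotide exchange factor Hyou1 and the J-domain protein Dnajc3 separated the groups. Hyou1 stood at 17.3, 17.1 and 16.3 FPKM in Ctrl and at 19.8, 19.2 and 18.7 FPKM in BKO (log2 difference 0.18, limma adjusted p = 0.417). Dnajc3, also known as p58IPK, stood at 13.5, 13.4 and 14.5 FPKM in Ctrl and at 16.1, 17.1 and 14.8 FPKM in BKO (log2 difference 0.20, limma adjusted p = 0.450). Dnajb11, the co-chaperone ERdj3, overlapped through BKO-3, at 14.8, 12.9 and 15.1 FPKM in Ctrl and at 17.8, 19.02 and 14.5 FPKM in BKO. Dnajb9, ERdj4, was the chaperone gene with a negative difference (log2 difference -0.08, 95% interval -0.46 to 0.31). It stood at 40.3, 40.5 and 58.4 FPKM in Ctrl and at 37.0, 46.7 and 46.9 FPKM in BKO, Ctrl-3 being the highest of the 6.

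**Figure D4:**
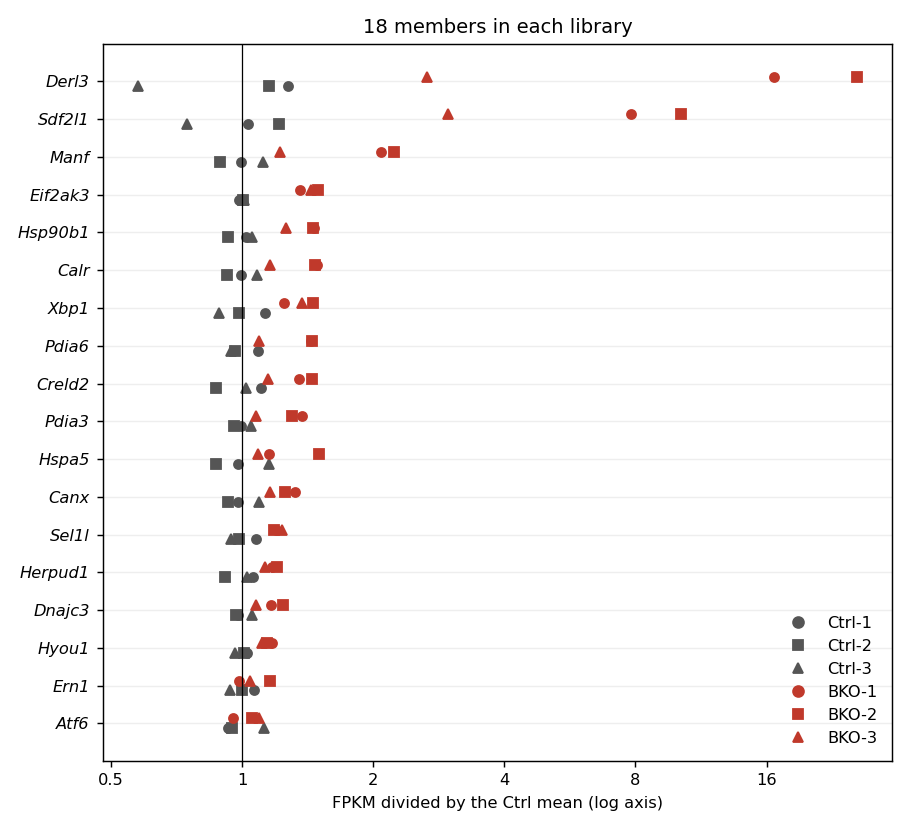
FPKM of 18 members in each library divided by the Ctrl mean of the gene (horizontal axis, log scale), ordered by the ratio of means, with the marker shape giving the replicate number. BKO-3 (triangles) lies left of BKO-1 and BKO-2 for Derl3, Sdf2l1 and Manf, whereas for Eif2ak3 and Xbp1 it lies between them.

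The disulfide enzymes were mixed. Pdia6, a protein disulfide isomerase that also binds BiP, stood at 45.6, 40.3 and 39.4 FPKM in Ctrl and at 60.3, 60.5 and 45.8 FPKM in BKO (log2 difference 0.39, SE 0.121, limma adjusted p = 0.350). BKO-3 lay 0.196 FPKM above the highest Ctrl library, so this separation was narrow. Pdia3, the isomerase that works with calnexin and calreticulin, stood at 49.5, 47.7 and 52.4 FPKM in Ctrl and at 68.7, 64.8 and 53.7 FPKM in BKO (log2 difference 0.31, SE 0.1001, limma adjusted p = 0.374).

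Pdia4 and P4hb, 2 further isomerases, had positive differences of 0.25 and 0.23 and overlapped between the groups. Dnajc10, the J-domain disulfide reductase ERdj5, stood at 6.14 to 6.36 FPKM in Ctrl and 5.88 to 7.30 FPKM in BKO. The oxidases that recharge the isomerases did not separate either. Ero1l stood at 10.0 to 11.9 FPKM in Ctrl and 9.52 to 13.6 FPKM in BKO (95% interval of the log2 difference -0.33 to 0.31), and Ero1lb, whose promoter holds an ERSE, at 2.02 to 2.57 and 1.97 to 2.36 FPKM (-0.30 to 0.19).

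Among the ERAD genes, Derl3 had the largest difference, from a low level. Derl3, a derlin of the retrotranslocation channel, stood at 0.255, 0.231 and 0.116 FPKM in Ctrl and at 3.34, 5.17 and 0.533 FPKM in BKO. BKO-3 was 0.0475 FPKM above the lowest value that its library holds above 0, and the BKO mean rests on BKO-1 and BKO-2. That lowest value, 0.486 FPKM, exceeds every Ctrl value of Derl3. Any BKO-3 value above 0 was therefore bound to lie above Ctrl. The log2 difference was 1.52 (SE 0.457, limma adjusted p = 0.341), and a pseudocount of 0.1 FPKM in place of 1 made it 2.94 (adjusted p = 0.262). The related derlins overlapped, Derl1 at 51.9 to 55.02 FPKM in Ctrl and 43.1 to 56.9 FPKM in BKO, and Derl2 at 24.6 to 29.0 and 27.2 to 28.7 FPKM. The 95% interval of the log2 difference was -0.31 to 0.23 for Derl1 and 0.45 to 2.60 for Derl3, and the difference between the derlins was not tested.

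Sel1l, the adaptor of the Hrd1 ubiquitin ligase, stood at 14.2, 12.99 and 12.4 FPKM in Ctrl and at 15.8, 15.6 and 16.3 FPKM in BKO (log2 difference 0.25, SE 0.0742, limma adjusted p = 0.329). The BKO libraries lay close together, with BKO-3 the highest. Herpud1, a membrane scaffold of the same complex, stood at 42.7, 36.8 and 41.3 FPKM in Ctrl and at 47.2, 48.4 and 45.4 FPKM in BKO (log2 difference 0.22, SE 0.0763, limma adjusted p = 0.411). Both separated the groups.

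Syvn1, the ligase Hrd1 itself, stood at 11.9, 11.03 and 11.2 FPKM in Ctrl and at 10.4, 12.9 and 10.3 FPKM in BKO, with 2 of 3 BKO libraries below all Ctrl libraries. Edem1 and Edem2, which trim mannose from misfolded glycoproteins, had log2 differences of 0.13 and -0.01, and the lectin Os9 0.07, all with overlap. H47, the other symbol of Vimp and a partner of the derlins, stood at 24.8, 20.4 and 21.0 FPKM in Ctrl and at 23.8, 27.9 and 23.2 FPKM in BKO (limma adjusted p = 0.627).

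The translocon genes did not separate the groups. Sec61b and Sec61g, the small subunits of the channel, stood at 33.4 to 44.7 FPKM in Ctrl and 38.3 to 57.0 FPKM in BKO, and at 39.8 to 42.8 and 37.5 to 62.7 FPKM. Sec61a1, the pore subunit, stood at 21.1 to 22.7 and 21.4 to 25.8 FPKM. An antisense transcript, Gm44170, covers 17.3% of the exonic bases of Sec61a1. Of the translocon-associated proteins, Ssr3 had the narrowest interval. It stood at 58.1 to 59.6 FPKM in Ctrl and 59.4 to 61.1 FPKM in BKO (95% interval of the log2 difference -0.10 to 0.17), and the intervals were -0.22 to 0.11 for Ssr1 and -0.28 to 0.24 for Ssr2.

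The BKO libraries did not carry the pattern equally. BKO-3 was the lowest BKO library for 30 of the 38 members (78.9%), and for 36.2% of all genes tested. The number of members above their highest Ctrl library was 27 in BKO-1, 31 in BKO-2 and 16 in BKO-3, where 27.4%, 33% and 29% of all genes tested lay above theirs. The median ratio of the members to the Ctrl mean was 1.17, 1.197 and 1.06. Without BKO-3, 25 members did not overlap between the groups, all higher, and 21 were higher at an unadjusted p of 0.05, where the shares over all genes in the same fit were 17.3% and 8.76%. In that fit with 2 BKO libraries 3 members passed over all genes, as did 0.263% of all genes as higher (limma adjusted p = 0.00969 for Sdf2l1, 0.0207 for Derl3 and 0.0364 for Manf). Eif2ak3 and Xbp1 differ from these: without BKO-3 their log2 differences were 0.41 and 0.42, against 0.41 and 0.43 with it. No other omission of a single library gave a member that passed. With library weights estimated by limma and all 6 libraries, Hsp90b1 and Sdf2l1 passed (adjusted p = 0.0373 for each). Both fits tested the genes kept by their mean over all 6 libraries. Sdf2l1 and Derl3 had reached that minimum through BKO alone, so a difference in them was bound to be upward.

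The wider ER machinery, 126 tested genes in 7 further lists, showed smaller shares. Of these 13 were higher and 4 lower at an unadjusted p of 0.05 (limma), 10.3% higher against 6.63% of all genes and 39.5% of the members, with a median log2 difference of 0.03, and 0 passed over all genes. In 17 of the 126 every BKO library lay above every Ctrl library (13.5%, against 9.06% of all genes). In 13 they all lay below (10.3%, against 6.82% of all genes). Kdelr3, Casp12 and Chac1 had a Ctrl mean under 1 FPKM and reached the minimum level through BKO alone, so a difference in them was bound to be upward. Among 33 further folding and disulfide genes 1 was higher, Serp1, which stabilises membrane proteins during stress, with 72.4 ± 3.53 FPKM in the Ctrl and 88.6 ± 9.52 FPKM in the BKO libraries (SD, n = 3). In that list 2 were lower, Txndc12 at 26.1 ± 1.23 and 22.4 ± 1.55 FPKM and Mesdc2 at 9.77 ± 0.563 and 8.11 ± 0.871 FPKM. Its differences were negative in 20 of the 33 genes (median log2 difference -0.04). The groups did not overlap in 1 gene that was higher and 5 that were lower. Among 20 further ERAD genes 0 were higher and 1 was lower, Faf2, which recruits the p97 ATPase, at 11.1 ± 0.742 and 9.09 ± 0.783 FPKM. Differences in this ERAD list were negative in 15 of the 20 genes (median -0.04). Here the groups did not overlap in 1 gene that was higher and 4 that were lower.

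Genes of protein entry, glycosylation and export followed. Of 17 targeting and signal peptidase genes 2 (11.8%) lay higher at that threshold, Srp9 of the signal recognition particle at 30.9 ± 3.18 and 38.9 ± 3.08 FPKM and the signal peptidase subunit Sec11a at 23.6 ± 1.01 and 27.0 ± 0.974 FPKM. Of 11 oligosaccharyltransferase subunits 2 (18.2%) were higher, Ostc at 9.37 ± 0.434 and 11.2 ± 1.16 FPKM and the catalytic subunit Stt3a at 18.7 ± 1.33 and 21.4 ± 0.916 FPKM. Of 24 genes of ER-to-Golgi transport 2 (8.33%) were higher, a share near the 6.63% of all genes. Sec24d, a cargo adaptor of the COPII coat, stood at 1.95, 1.66 and 1.79 FPKM in Ctrl and at 4.19, 3.95 and 2.796 FPKM in BKO, and Kdelr3, a receptor that returns escaped chaperones, at 1.11, 0.884 and 0.801 and at 1.58, 1.58 and 1.17 FPKM. In both, all BKO libraries lay above Ctrl and BKO-3 was the lowest of them (limma adjusted p = 0.171 for Sec24d). In 2 genes of this list, named after their values were seen, all BKO libraries lay below Ctrl. The cargo receptor Lman1 stood at 23.4 to 24.1 FPKM in Ctrl and 20.8 to 22.6 FPKM in BKO, and the COPII GTPase Sar1b at 72.3 to 75.9 and 61.0 to 70.2 FPKM.

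The list of the PERK and ATF4 branch had the largest share among these lists. Of its 13 tested genes 5 (38.5%) lay higher and 1 lay lower at an unadjusted p of 0.05 (limma), with a median log2 difference of 0.38. Over all genes tested, 6.63% lay higher and 3.52% lower at that threshold. The groups did not overlap in 4 genes of the list that were higher (30.8%) and 1 that was lower, against 9.06% and 6.82% of all genes. Sesn2, a stress-inducible inhibitor of mTORC1, stood at 7.86, 7.92 and 8.10 FPKM in Ctrl and at 11.8, 14.9 and 14.0 FPKM in BKO, with a log2 difference of 0.69 (SE 0.0952, limma adjusted p = 0.0568). Ddit3, the transcription factor CHOP, stood at 13.3, 13.4 and 12.1 FPKM in Ctrl and at 14.6, 21.3 and 16.0 FPKM in BKO (limma adjusted p = 0.416). Nupr1 stood at 15.0 ± 3.99 and 22.8 ± 2.64 FPKM. Ppp1r15b, the constitutive phosphatase subunit beside GADD34, was the gene that was lower, at 60.9, 59.4 and 59.7 FPKM in Ctrl and at 47.7, 42.0 and 57.1 FPKM in BKO. The other 2 that were higher were Trib3, at 2.65, 2.70 and 1.85 FPKM in Ctrl and at 8.88, 9.35 and 3.83 FPKM in BKO, and Cebpb, whose groups overlapped. Of 8 tested stress transducers outside the members 1 (12.5%) was higher, Wfs1, at 4.32, 4.40 and 3.47 FPKM in Ctrl and at 7.91, 7.31 and 4.37 FPKM in BKO, where BKO-3 lay within the Ctrl range, and the next was Casp12, at 0.887 ± 0.392 and 1.43 ± 0.263 FPKM.

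Markers of other cell types were measured beside these genes, since in whole tissue a change in the number of cells of a type and a change in RNA per cell cannot be told apart. All 18 macrophage markers were listed, all 16 tested had a positive difference and 4 passed over all genes (limma, adjusted p of 0.05). Over all genes 0.158% passed as higher. Among the 4, Gpnmb had a Ctrl mean of 0.255 FPKM and reached the minimum level through BKO alone. At an unadjusted p of 0.05, limma found 14 of the 16 higher (87.5%, against 6.63% of all genes). In 13 of the 16 every BKO library lay above every Ctrl library (81.2%, against 9.06% of all genes). The summed level of these markers was 68.05 to 111 FPKM in Ctrl and 197 to 245 FPKM in BKO. The 13 fibroblast and preadipocyte markers summed to 232 to 282 FPKM in Ctrl and 283 to 336 FPKM in BKO. Of their differences 12 were positive, and 0 passed the test over all genes by limma. At an unadjusted p of 0.05, 4 of them were higher by limma (30.8%, against 6.63% of all genes). Skeletal muscle markers summed to 121 to 653 FPKM in Ctrl and 161 to 428 FPKM in BKO, and endothelial markers to 215 to 235 and 212 to 235 FPKM. The part of these cells in the results on the ER genes was not tested.

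Plasma cells carry large amounts of ER chaperones, and 4 of their 12 markers had a row. Igj, the joining chain of secreted antibodies, stood at 0.764, 0.633 and 0.306 FPKM in Ctrl and at 0.796, 1.63 and 2.28 FPKM in BKO. Its Ctrl mean was under 1 FPKM, and it reached the minimum level through BKO alone. Sdc1, the surface proteoglycan CD138, stood at 0.865, 0.824 and 0.412 FPKM in Ctrl and at 1.122, 1.297 and 0.633 FPKM in BKO, under the minimum mean. Among the BKO libraries, BKO-3 was the highest for Igj and the lowest for Sdc1. Cd38 stood at 3.35 to 4.42 FPKM in Ctrl and 4.35 to 5.17 FPKM in BKO, which overlap. The summed level of the 4 markers, mostly Irf4, which brown adipocytes also express, was 42.6 to 51.6 FPKM in Ctrl and 34.2 to 119 FPKM in BKO. The part of plasma cells in the results was not tested.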

How the data were processed

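RNA of brown adipose tissue was extracted with Trizol and made into libraries with a TruSeq kit, per the labels' protocols. CASAVA 1.8, TopHat2 2.0.12, Cufflinks 2.2.1 and the build NCBIM37 are named in the submitters' processing notes, while the use of options, annotation and strand was not given in the sources used here. FPKM values were computed and deposited by the authors for each gene. Columns were matched to samples by the names in the sample descriptions, which call Ctrl libraries MT and BKO libraries WT.

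Values were transformed as log2(FPKM + 1), genes were kept from a mean of 1 FPKM, and limma 3.58.1 in R 4.3.3 was fitted over all 6 libraries with an intensity trend and no covariate, with Benjamini-Hochberg adjustment over all genes tested. The fit was tested on simulated data. Ratios are of mean FPKM, and changes on the log2 scale understate those of low genes. Alternatives were other pseudocounts, filters, scalings, no intensity trend, weights per library, replicate number as a block, muscle markers as covariate and each library left out; splitting off members with a low Ctrl level was added after seeing the data.

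The members and lists were chosen with earlier results of these data known. Values in every library are given for members with an unadjusted p under 0.05, for the sensors, Xbp1 and 4 abundant chaperones whatever their test, and for others where the role called for it. Of each further list, the genes with the lowest p are named, except for a gene that is left out of this account. Promoter windows are from RefSeq on GRCm38.p6, searched with Python 3.11.15, and 75.4% of the tested genes had one. Exon overlaps are from GENCODE vM21. Both differ in build from the authors' alignment. Protein sequences were not used.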

Additional observations from a re-analysis of the deposited data

How the results depend on the processing

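With all 6 libraries, the median log2 difference of the members was 0.19 to 0.25 over 10 alternatives and 0.21 for members with a Ctrl mean of at least 1 FPKM, a split chosen after seeing the data. The shift of all genes stayed between -0.02 and 0.01 in those alternatives. Of the 176 values of named members in them, 174 kept their direction and side of the threshold, and 2 passed with library weights (Hsp90b1 and Sdf2l1), which raised the number of members called from 0 to 2. The number with an unadjusted p under 0.05 was 17 under the replicate block and 21 with library weights, against 15. It was 14 under median ratio rescaling and under quantile normalization. Members without overlap, all higher, numbered 13 under each of these scalings, against 15. With a minimum mean of 5 FPKM both counts were 12, and that filter leaves out Sdf2l1, Derl3 and Eif2ak3 among others. The correlations of the deviations of same-numbered libraries were 0.20, -0.10 and -0.10. Those of differently numbered libraries ranged from -0.13 to 0.22. Deviations from the mean of 3 libraries depend on each other, so these values cannot decide whether libraries were paired. With 1 library left out, the median was 0.16 to 0.25, members called 0 to 3, members without overlap 15 to 25 higher and 0 to 2 lower, and members with an unadjusted p under 0.05 numbered 10 to 21. The median was lowest without BKO-1 (0.16), BKO-2 (0.17) or Ctrl-2 (0.18), and the unadjusted count was 10 in each of these. Of the 108 values of named members, 104 kept direction and side, 3 passed without BKO-3, and the log2 difference of Atf6, 0.04 with all libraries, ranged from -0.000618 without Ctrl-1 to 0.12 without Ctrl-3. Causes were not tested. Depth is unknown, so counting error could not be set against these values.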
